A study of Sus scrofa with 4 samples.

Results

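Prostaglandins are lipid signals that cells make from arachidonic acid, a fatty acid that phospholipases cut from membrane lipids. The cyclooxygenases PTGS1 and PTGS2 turn it into prostaglandin H2. Terminal synthases convert that intermediate into prostaglandin E2 (PGE2), prostacyclin (PGI2) and the other products. Each product acts through its own G protein-coupled receptors. The enzyme 15-hydroxyprostaglandin dehydrogenase (HPGD) starts the breakdown of some of them, among them PGE2 and prostaglandin F2alpha. In fat tissue prostaglandins are known both as inhibitors and as promoters of preadipocyte differentiation, according to the product and the receptor it meets.

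The RNA levels of 10 genes of this pathway, chosen by name, were followed through differentiation of pig preadipocytes. They were PTGS1 and PTGS2, the PGE2 synthases PTGES, PTGES2 and PTGES3, the prostacyclin synthase PTGIS, the receptors PTGFR, PTGER2 and PTGER4, and HPGD. All 10 were found among 16192 protein-coding genes, which are part of 22944 genes of all kinds. The cells were subcutaneous preadipocytes of male Chinese Erhualian piglets, aged 5 days, and all groups were of this kind. Confluent cells formed the stage D0. Insulin (5 ug/mL), dexamethasone (1 umol/L) and the phosphodiesterase inhibitor IBMX (0.5 mmol/L) were given from D0 to D2, insulin alone at the same dose from D2 to D4, and medium without these agents from then to D8. At each stage RNA of 3 piglets was mixed in equal amounts into 1 library, so the spread between animals cannot be seen and no test between stages was possible.

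Levels are given as FPKM, the fragments of a gene scaled to its length and to the size of its library, which allows levels of genes of different length to be compared. Library sizes recovered from the values were 54128151 to 75387428 fragments. The 95% intervals below are exact intervals from the fragments of 1 or 2 libraries. They cover counting error only and compare libraries, so stage and library cannot be told apart. A gene was called higher or lower where its log2 ratio of FPKM + 0.01 was at least 1 in size, a 2-fold difference. The 6 adipocyte markers summed to 103 FPKM before induction and to 362, 1502 and 2003 FPKM at the later stages. From D4 to D8 FABP4 (853 and 1557 FPKM) and CIDEC (5.006 and 54.6) were higher, while ADIPOQ (179 and 158), LPL (249.8 and 142) and PLIN1 (215 and 90.3) were lower, and LEP stayed at or below 0.314 FPKM. All 6 stromal markers stayed above 1 FPKM in every library. The marker lists of endothelial cells, of leukocytes and of mesothelium each summed to at most 3.72 FPKM in any library. CDH5 was at 0 in 3 libraries and VWF at 0 in the same number. Of the 2 mast cell markers, KIT reached 9.43 FPKM at D4 and MS4A2 was at 0 from D2 on. These are mixtures of cells, in which fewer cells that express a gene and less RNA per cell cannot be told apart.

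**Figure D1:**
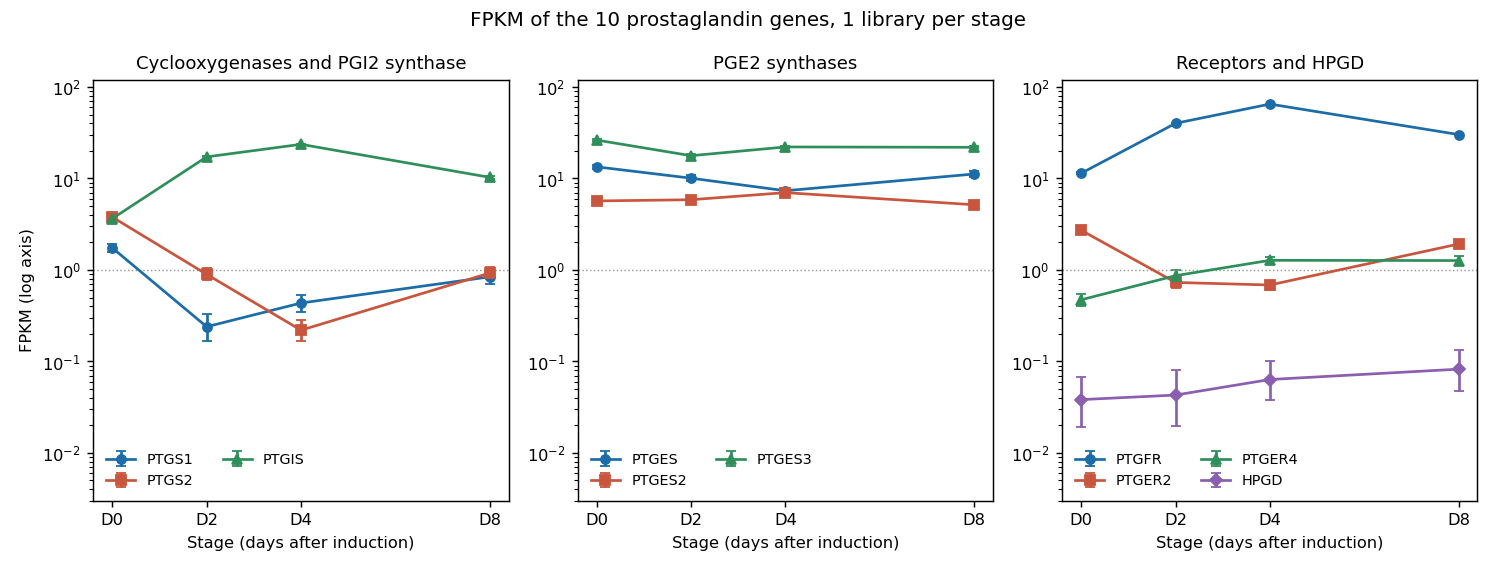
FPKM (log axis) of the 10 genes at D0, D2, D4 and D8, with days on the horizontal axis, 1 point per library and bars for the 95% Poisson interval of the fragments; the dotted line marks 1 FPKM. PTGIS and PTGFR peak at D4 at 23.6 and 65.0 FPKM, PTGS1, PTGS2 and PTGER2 are highest at D0, the PGE2 synthases stay between 5.16 and 26.3 FPKM, and HPGD lies below 0.1 FPKM throughout.

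The genes did not move as a block. PTGIS and PTGFR were several-fold higher at D2 and D4 than at D0 and came part of the way back at D8. PTGS1, PTGS2 and PTGER2 were several-fold lower at D2 and D4 and higher again at D8. PTGER4 was higher at D4 and D8 than at D0, the 3 PGE2 synthases kept within 2-fold of their D0 level, and HPGD was close to absent.

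The cyclooxygenases carry out the committed step. PTGS2, the inducible enzyme, stood at 3.79 FPKM at D0 (1031 fragments), 0.896 at D2 (178), 0.220 at D4 (59) and 0.926 at D8 (181). It was highest before induction, lowest at D4, and its D8 level did not differ from that of D2 beyond counting error (ratio 1.03, 95% interval 0.835 to 1.28). The D2 library held 4.22-fold less PTGS2 than D0 (log2 ratio -2.07, -2.32 to -1.85), and D4 held 4.08-fold less than D2 (-1.98, -2.48 to -1.60). PTGS2 was below 1 FPKM in both libraries of the second step, and with a pseudocount of 1 in place of 0.01 the log2 ratio of that step was -0.64, short of a call. From D0 to D4 the difference amounted to 17.2-fold (-4.05, -4.51 to -3.73), the widest range of the 10 genes. Between D4 and D8 the direction turned, and D8 held 4.21-fold more PTGS2 than D4 (2.03, 1.64 to 2.52) but still 4.09-fold less than D0.

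PTGS1, the form that most tissues express constantly, was not constant here. Its level was 1.74 FPKM at D0 (349 fragments), 0.240 at D2 (35), 0.435 at D4 (86) and 0.841 at D8 (121). Every pair of neighbours in the order D0, D8, D4, D2 differed beyond counting error. The D2 level was 7.27-fold below that of D0 (log2 ratio -2.81, -3.41 to -2.36), and the D8 level was still 2.07-fold below it (-1.04, -1.36 to -0.75), a call that ended with median-ratio scaling (-0.89) and with a pseudocount of 0.1 (-0.97) or 1 (-0.57). The lowest points of the cyclooxygenases thus fell at different stages, D2 for PTGS1 and D4 for PTGS2. The ratio of PTGS2 to PTGS1 within a library, which no scaling between libraries can alter, was 2.17 at D0 (1.92 to 2.46), 3.74 at D2 (2.59 to 5.54), 0.505 at D4 (0.356 to 0.711) and 1.10 at D8 (0.869 to 1.396). PTGS2 was therefore the more abundant form at D0 and D2, PTGS1 at D4, and at D8 the interval included an equal level. Summed, both cyclooxygenases reached 5.53 FPKM before induction, then 1.14, 0.655 and 1.77 FPKM.

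Counts of PTGS2 have a neighbour to consider. PTGS2 lies on the minus strand of chromosome 9 (Sscrofa11.1, chr9:127850164-127858866), and PLA2G4A, the cytosolic phospholipase A2 that releases arachidonic acid, lies on the plus strand at chr9:127853581-128164825. Their spans share 5286 bases, 60.7% of the span of PTGS2. The library kit keeps the strand, but the strand setting of the counting is not given in the sources used here, so reads in the shared stretch cannot be assigned with certainty. PLA2G4A was at 6.35, 3.49, 3.45 and 2.64 FPKM at D0, D2, D4 and D8. The ratio of PTGS2 to PLA2G4A was 0.596 before induction, then 0.256, 0.0636 and 0.3504. The part of shared reads in these values was not tested. A circular RNA from within PTGS2 (ssc_circ_0004587, chr9:127856917-127857296, 380 bases) had 6 back-splice junction reads at D2 and was listed at 0 in each of the other 3 libraries, where 2 reads is the lowest count listed for any circular RNA.

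ACTA2 and TAGLN, genes of the contractile apparatus, had the same order of stages as PTGS2, PTGES and PTGER2, D0 above D8, D2 and D4. Of the 9191 protein-coding genes with at least 1 FPKM in at least 3 libraries, 9.24% had this order. D8 and D2 of PTGS2 and PTGES, and D2 and D4 of PTGER2, did not differ beyond counting error. The 5 smooth muscle and pericyte markers summed to 6111 FPKM in the D0 library, 660 and 507 FPKM in the next, and 4786 FPKM in the last. ACTA2 and TAGLN made up most of these sums. The other 3 markers had other orders. DES was at 436, 37.7, 4.05 and 35.7 FPKM. MYH11, the myosin heavy chain that defines mature smooth muscle, was at 0.289 to 0.633 FPKM, lowest at D8. RGS5 was highest at D4, with 0.742 FPKM, and none of the 5 markers was at 0. Their part in the differences of the prostaglandin genes was not tested.

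The PGE2 synthases act on prostaglandin H2 from either cyclooxygenase, and none of them was called in any of the 5 comparisons. PTGES, the microsomal enzyme that is usually induced together with PTGS2, was at 13.4 FPKM at D0 (1186 fragments), 10.1 at D2 (650), 7.34 at D4 (641) and 11.2 at D8 (711). It had the same order of stages as PTGS2, D0 above D8, D2 and D4, but over a range of 1.82-fold against 17.2-fold. Its D4 library was 1.37-fold below D2 (1.23 to 1.53), and D8 and D2 did not differ beyond counting error (1.11, 0.998 to 1.24). PTGES2, a second membrane-associated synthase, was at 5.68 FPKM at D0 (938 fragments), 5.86 at D2 (706), 7.00 at D4 (1141) and 5.16 at D8 (612), a range of 1.36-fold with the highest value where PTGES was lowest. PTGES therefore stood 2.36-fold above PTGES2 at D0 (2.16 to 2.57), 1.72-fold at D2 (1.54 to 1.91) and 2.17-fold at D8 (1.94 to 2.42), while at D4 the ratio of 1.05 had an interval that included 1 (0.950 to 1.16).

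PTGES3, which is both the cytosolic PGE2 synthase and the HSP90 co-chaperone p23, was the most abundant of the 3 PGE2 synthases, at 26.3 FPKM at D0 (7247 fragments), 17.7 at D2 (3569), 22.1 at D4 (6015) and 21.9 at D8 (4340). Its range was 1.48-fold, D2 was the lowest library, and D4 and D8 did not differ beyond counting error (1.01, 0.970 to 1.05). PTGES3 also gave one of the most abundant circular RNAs of these cells. The circle ssc_circ_0002577 (chr5:22008784-22009750, minus strand, 967 bases of genome) had 134, 86, 124 and 96 junction reads in the libraries from D0 to D8, and ranked 26 of 8623 circular RNAs by its summed reads. Its level in SRPBM, junction reads scaled to all mapped reads, was 860, 625, 736 and 806. The circle shared the lowest library, D2, with the linear RNA (log2 ratio of D2 to D0 -0.46, -0.87 to -0.06, against -0.57 for the linear RNA), and its steps from D2 to D4 and from D4 to D8 had intervals that included 0. A second circle of PTGES3, ssc_circ_0002576, was listed with 3, 5, 0 and 7 junction reads. None was recorded within the span and on the strand of the other 8 genes.

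PTGIS makes prostacyclin and is otherwise best known from vessel walls. Its level was 3.64 FPKM at D0 (1508 fragments), 17.2 at D2 (5196), 23.6 at D4 (9643) and 10.3 at D8 (3057). All 4 libraries differed from their neighbours in the order D4, D2, D8, D0 beyond counting error. D2 held 4.72-fold more than D0 (log2 ratio 2.24, 2.16 to 2.32), and 1.39% of the 9191 reliably expressed protein-coding genes (at least 1 FPKM in at least 3 of the 4 libraries) had a higher ratio. D4 held 6.48-fold more than D0, and D8 kept a level 2.82-fold above D0 although it was 2.30-fold below D4 (-1.20, -1.26 to -1.14). Endothelial markers stood at 1.16 to 2.65 FPKM in sum, and nearly all of this was PECAM1 (2.56, 1.14, 1.70 and 1.87 FPKM). KDR, CDH5, VWF and TEK were each at or below 0.0576 FPKM and had no common order of stages. The part of endothelial cells in the level of PTGIS was not tested. Within a library the ratio of PTGIS to PTGES went from 0.272 at D0 (0.252 to 0.294) to 1.71 at D2 (1.58 to 1.86) and 3.22 at D4 (2.97 to 3.49), and was 0.920 at D8 (0.847 to 0.999). The RNA of the prostacyclin synthase was thus below that of PTGES at D0 and D8 and above it at D2 and D4. Against PTGS2, which supplies its substrate, PTGIS had a ratio of 0.963 at D0 (0.889 to 1.04), 19.2 at D2 (16.5 to 22.4), 108 at D4 (83.3 to 141) and 11.12 at D8 (9.57 to 12.99).

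**Figure D2:**
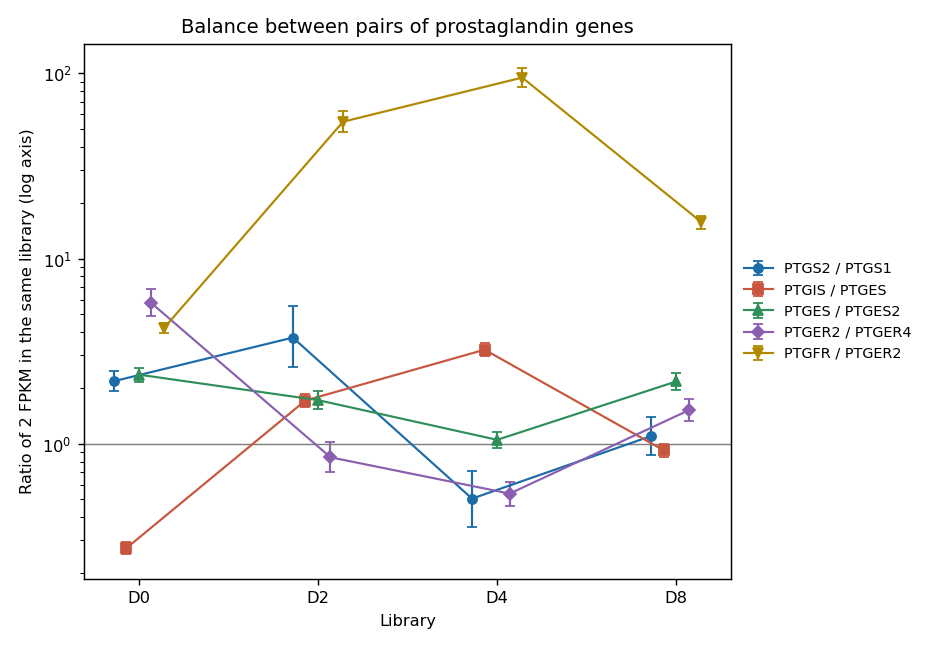
Ratios of FPKM (log axis) between pairs of genes within each of the 4 libraries, with 95% counting intervals as bars; the line at 1 marks equal levels and points are shifted sideways for clarity. PTGFR over PTGER2 reaches 94.97 at D4, PTGIS over PTGES crosses 1 between D0 and D2, and PTGS2 over PTGS1 lies below 1 at D4 only.

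Among the receptors, PTGFR, which binds prostaglandin F2alpha and signals through Gq, dominated. It was at 11.4 FPKM at D0 (5198 fragments), 40.1 at D2 (13323), 65.0 at D4 (29247 fragments) and 30.2 at D8 (9887 fragments). The libraries stood in the same order as for PTGIS, and all neighbours differed beyond counting error. D2 was 3.51-fold above D0 (log2 ratio 1.81, 1.77 to 1.86), D4 was 5.70-fold above it (2.51) and D8 2.65-fold (1.41), while D8 was 2.15-fold below D4 (-1.11). From D2 onward PTGFR had the highest level of the 10 genes, at D4 above 94.9% of all protein-coding genes. Of the summed FPKM of 9 prostanoid receptor genes, PTGFR made up 73.4% before induction and 95.9%, 96.5% and 88.2% in the later libraries.

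The PGE2 receptors EP2 and EP4, encoded by PTGER2 and PTGER4, both couple to Gs and raise cyclic AMP. Against D0, PTGER2 was lower and PTGER4 higher in all 3 later libraries. PTGER2 was at 2.72 FPKM at D0 (1238 fragments), 0.731 at D2 (243), 0.685 at D4 (308) and 1.92 at D8 (629). D2 and D4 did not differ beyond counting error (1.07, 0.898 to 1.27) and lay below the other libraries. D2 was 3.72-fold below D0 (log2 ratio -1.88), and D8 was 2.81-fold above D4 (1.47) and 1.41-fold below D0 (1.28 to 1.56). PTGER4 was at 0.472 FPKM at D0 (163 fragments), 0.866 at D2 (218), 1.27 at D4 (434 fragments) and 1.27 at D8 (314 fragments). D4 was 2.70-fold above D0 (log2 ratio 1.41), and D4 and D8 did not differ beyond counting error (1.01, 0.868 to 1.17). The ratio of PTGER2 to PTGER4 was 5.75 at D0 (4.88 to 6.81), 0.844 at D2 (0.700 to 1.02), 0.537 at D4 (0.463 to 0.623) and 1.52 at D8 (1.32 to 1.74). PTGER2 was the more abundant at D0 and D8, PTGER4 at D4, and at D2 the interval included an equal level. PTGER2 shares 12415 bases, 77.6% of its span, with PTGDR on the same strand of chromosome 1, and PTGDR had 7, 0, 2 and 0 fragments. Strand cannot assign reads in the shared stretch to either gene, and their part in the values of PTGER2 was not tested.

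Each of the other 6 prostanoid receptors stayed below 1 FPKM in all libraries. PTGER3, the PGE2 receptor that lowers cyclic AMP, had 115, 24, 88 and 266 fragments at D0, D2, D4 and D8 (0.219, 0.0626, 0.170 and 0.705 FPKM), its highest level at D8. The thromboxane receptor TBXA2R had 129 fragments at D0 against 0, 4 and 14 later, and 0.615 FPKM at D0. The prostacyclin receptor PTGIR, the receptor for the product of PTGIS, had 13, 7, 23 and 4 fragments, PTGER1 0, 1, 4 and 0, and PTGDR2 3, 0, 4 and 10. These counts leave little room to compare the stages of the last 3.

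HPGD starts the breakdown of PGE2 and prostaglandin F2alpha. It was at 0.0383 FPKM at D0 (11 fragments), 0.0429 at D2 (9), 0.0635 at D4 (18) and 0.0824 at D8 (17 fragments), the only one of the 10 genes below 1 FPKM in every library. No pair of libraries among the 5 comparisons differed beyond counting error, with a log2 ratio of D8 to D0 of 0.94 (-0.07 to 2.35), and a difference was not detectable at this depth. The enzymes that act after HPGD were well expressed. PTGR1, a prostaglandin and leukotriene reductase, was at 13.2, 13.7, 17.2 and 36.2 FPKM, 2.10-fold higher at D8 than at D4 and 2.75-fold higher than at D0. PTGR2 (8.86 to 14.5 FPKM) and ZADH2 (9.93 to 19.8 FPKM), reductases of 15-keto prostaglandins, had their highest level at D0 and their lowest at D4, and neither was called.

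**Figure D3:**
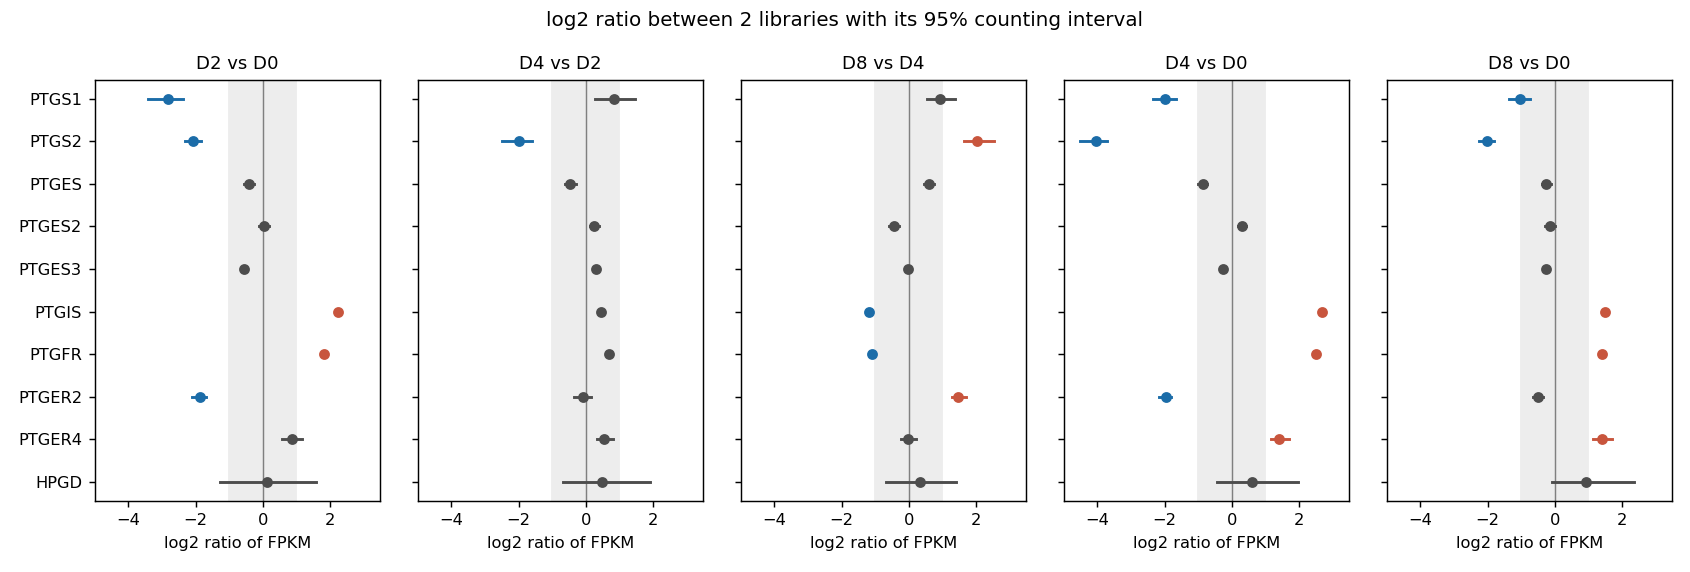
log2 ratios of FPKM (horizontal axes) of the 10 genes in the 5 comparisons, 1 library against 1, with 95% counting intervals as lines; grey bands mark less than 2-fold, and red and blue points are genes called higher and lower. PTGS2 lies furthest from 0 (-4.05 in D4 vs D0), and the intervals of HPGD include 0 in every panel.

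Only 5 of the 10 genes (PTGES, PTGES2, PTGES3, PTGIS and PTGFR) were reliably expressed by the limit of 1 FPKM in at least 3 libraries. Of these 5, PTGIS and PTGFR were called higher in D2 vs D0, where 16.8% of the 9191 genes were called in either direction and 6.67% were called higher. In D4 vs D2 none of the 5 was called, against 5.08% of genes. PTGIS and PTGFR were called lower in D8 vs D4 (14.5% of genes in either direction, 10.1% lower). They were called higher in D4 vs D0 (19.2% and 10.4% higher) and in D8 vs D0 (7.28% and 3.6% higher). The other genes of the 5 were not called in any comparison. The median log2 ratio of the 5 was 0.05 in D2 vs D0 (-0.03 over all 9191 genes), 0.32 in D4 vs D2 (0.09), -0.44 in D8 vs D4 (-0.21), 0.30 in D4 vs D0 (0.06) and -0.14 in D8 vs D0 (-0.18). Most genes thus had a slightly lower ratio in the comparisons of D8. Once the libraries were scaled to the median ratio of all genes, D8 stood below D4 by a log2 ratio of -0.99 for PTGIS and -0.90 for PTGFR, just short of 2-fold, and no gene of the 5 was called in that comparison. With that scaling the genes called higher went from 30.5% to 52.0% of all genes called in D8 vs D4, and from 49.5% to 66.1% in D8 vs D0.

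**Figure D4:**
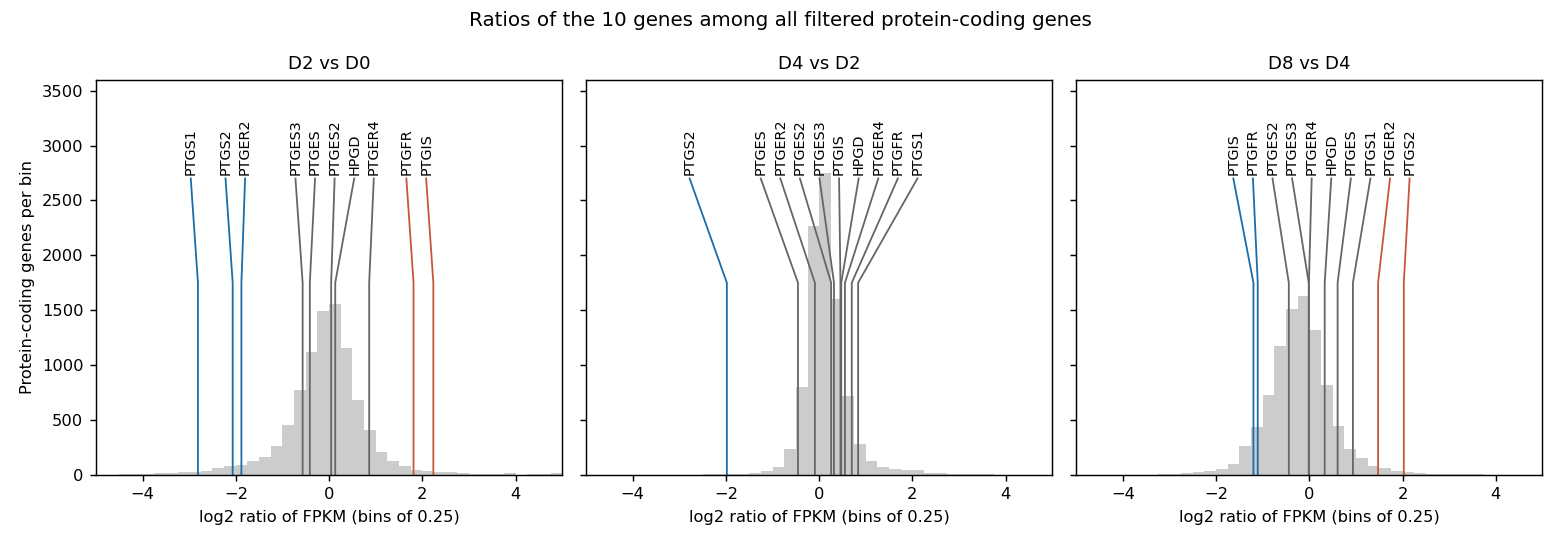
Histograms of the log2 ratio of FPKM (bins of 0.25, values beyond 5 in the outermost bins) for the 9191 reliably expressed protein-coding genes in the 3 consecutive comparisons, with the 10 genes as lines (red higher, blue lower, grey not called). Of the 10 genes, only PTGES, PTGES2, PTGES3, PTGIS and PTGFR are among the 9191. PTGS2 lies at -1.98 in D4 vs D2, while PTGES2 and PTGES3 lie within 1 of 0 in each panel.

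PTGS1, PTGS2, PTGER2 and PTGER4 passed 1 FPKM in 1 or 2 libraries only, those where they were high, so they had to differ to be counted at all. With the limit set at 1 FPKM in any library, chosen after the values were seen, 9 genes were counted. Of these, 5 were called in D2 vs D0 (20.3% of 10236 genes), 1 in D4 vs D2 (7.4%), 4 in D8 vs D4 (18%), 6 in D4 vs D0 (23.1%) and 5 in D8 vs D0 (10.1%). PTGS2 was called in all 5, PTGIS and PTGFR in 4, PTGS1 and PTGER2 in 3, PTGER4 in 2. With a pseudocount of 1, calls ended for PTGS2 in D4 vs D2 and D8 vs D4, PTGS1 in D4 vs D0 and D8 vs D0, PTGER2 in D8 vs D4 and PTGER4 in both of its comparisons. The order of stages D0, D8, D2, D4 was held by PTGS2, PTGES and PTGER2, and by 9.24% of the 9191 genes. The order D4, D2, D8, D0 was held by PTGIS and PTGFR, and by 10.8% of those genes.

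The wider eicosanoid pathway was followed in 57 further genes, of which 45 were analysed and 24 were reliably expressed. HPGDS and TBXAS1 were not analysed here. Of the 24 genes, 3 were called higher and 0 lower in D2 vs D0 (16.8% of the 9191 genes called in either direction), again 3 and 0 in D4 vs D2 (5.08%), 4 and 1 in D8 vs D4 (14.5%), 5 and 1 in D4 vs D0 (19.2%), and 6 and 3 in D8 vs D0 (7.28%). Among the genes that make other prostanoids, PTGDS, the lipocalin-type prostaglandin D2 synthase, was at 2.18 FPKM at D0 and 4.83, 5.17 and 4.42 later, 2.37-fold higher at D4 than at D0. FAM213B, a prostamide and prostaglandin F synthase, was at 10.1, 22.8, 18.5 and 9.78 FPKM and was called higher at D2. AKR1B1, an aldose reductase that also makes prostaglandin F2alpha, stayed between 16.5 and 22.5 FPKM. AKR1CL1, listed with these synthases, was far more abundant, at 277, 356, 234 and 176 FPKM, and was not called in any comparison.

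CBR1, a carbonyl reductase that turns PGE2 into prostaglandin F2alpha, had the largest ratio of D8 to D0 of the 24 genes. Its level was 3.22, 1.90 and 7.25 FPKM in the first libraries and 27.7 FPKM at D8, which was 8.60-fold above D0 (log2 ratio 3.10, 2.93 to 3.29). Its relative CBR3 was at 6.04, 5.08, 4.09 and 12.53 FPKM, 3.06-fold higher at D8 than at D4. CBR1, CBR3 and PTGR1 all had their highest level at D8, a stage at which PTGIS and PTGFR were below their D4 level.

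Genes of arachidonic acid release and supply moved in both directions. PLA2G4A was 2.41-fold lower at D8 than at D0 (log2 ratio -1.26, -1.37 to -1.16). PLA2G16, the main phospholipase A2 of adipocytes, was at 3.63, 3.08, 8.09 and 6.13 FPKM, and MGLL, the lipase that frees arachidonic acid from 2-arachidonoylglycerol, at 0.917, 1.18, 3.94 and 4.598 FPKM. ACSL4, which activates arachidonic acid for storage in lipids, was at 50.2, 35.9, 29.0 and 17.4 FPKM, lower at each stage than at the one before, and 2.88-fold lower at D8 than at D0. FADS2, a desaturase of the route that makes arachidonic acid, was 2.25-fold lower at D8 than at D0, whereas LPCAT3, which puts arachidonic acid back into phospholipids, was at 1.76, 7.30, 13.6 and 8.70 FPKM, 7.73-fold higher at D4 than at D0. ANXA1, the phospholipase inhibitor annexin A1, was at 943, 757, 388 and 968 FPKM, with its lowest level at D4 like PTGS2. Of the carriers, the exporter ABCC4 was at 1.13, 2.06, 1.85 and 0.843 FPKM and was called lower in D8 vs D4 (log2 ratio -1.13). The prostaglandin transporter SLCO2A1 had 0, 13, 14 and 0 fragments. Calls of the wider list were not checked under other scalings or pseudocounts.

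**Figure D5:**
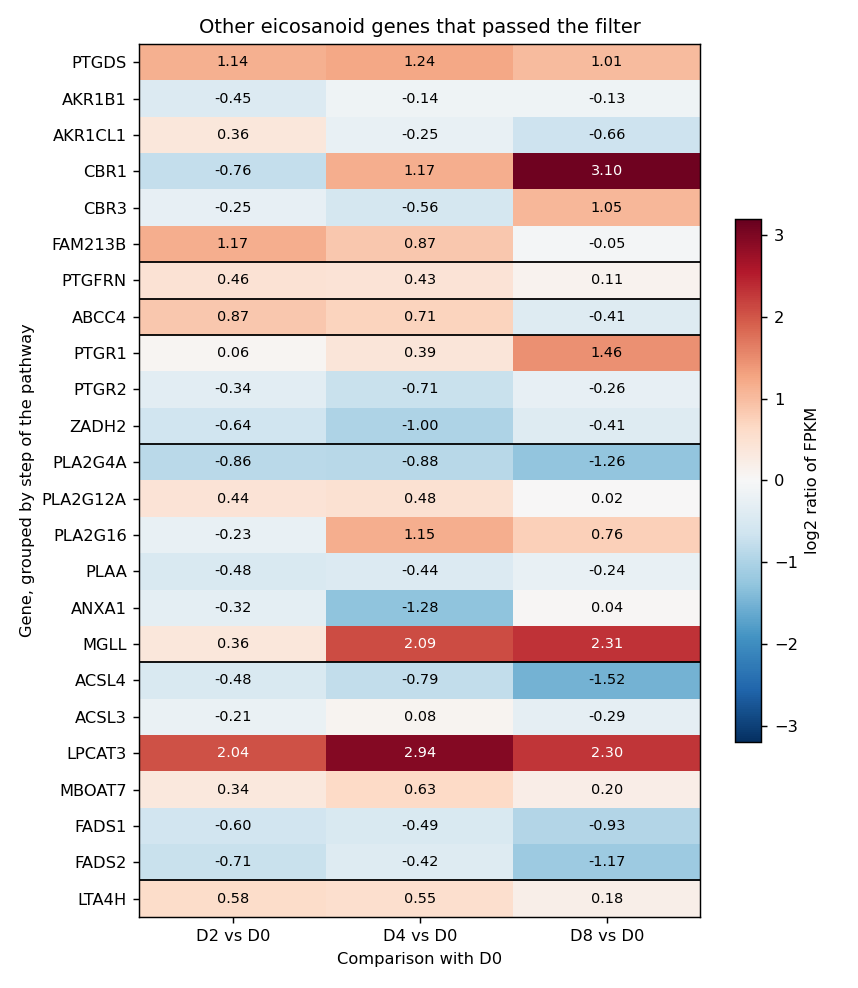
log2 ratios of FPKM against D0 (color scale, with the values written in) for the 24 other reliably expressed eicosanoid genes, in rows grouped by step of the pathway. CBR1 (3.10) and LPCAT3 (2.94 at D4) show the highest ratios and ACSL4 (-1.52 at D8) the lowest.

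The genes with profiles most like those of PTGIS and PTGFR were sought among 9190 reliably expressed genes, as the Euclidean distance of the 4 centred log2 values. Nearest to PTGFR were FMO4, a flavin monooxygenase (distance 0.108), CYGB, cytoglobin (0.141), and PNPLA2, the adipose triglyceride lipase (0.224). CYGB was at 3.46, 11.9, 18.6 and 8.06 FPKM, and 49 genes lay within 0.5 where the median distance was 1.86. Nearest to PTGIS were GCAT, a mitochondrial enzyme of threonine breakdown (0.180), the adaptor GAB2 (0.200) and LUM, the matrix proteoglycan lumican (0.212), with 35 genes within 0.5. LUM was at 32.6, 128, 186 and 77.0 FPKM. These distances rest on 4 libraries and are a description.

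In the genome (Sscrofa11.1) the 10 genes are scattered, and none is a near neighbour of another. PTGES (chr1:269911785-269924481, minus strand) lies 1.32 Mb from PTGES2 (chr1:268585725-268591356, minus strand), which lies 6.10 Mb from PTGS1 (chr1:262456106-262482159, plus strand). PTGER2 is on the same chromosome at chr1:181993961-182009959. PTGES3 is at chr5:22000335-22022830, PTGFR at chr6:134727334-134777067, HPGD at chr14:15718261-15773534, PTGER4 at chr16:25670832-25686556 and PTGIS at chr17:51153151-51200515. Newly assembled antisense RNAs overlap PTGFR over 37903 bases and PTGES2 over 153 bases, with at most 5 and 27 fragments in any library.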

How the data were processed

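Total RNA of 4 stages was depleted of ribosomal RNA and made into stranded libraries, 1 per stage, each a pool of 3 piglets. Per the labels and methods, the authors aligned reads to Sus scrofa 11.1 with HISAT2 2.0.5, and to find circular RNAs with BWA. The counting program and its strand setting are not given in the sources used here. The authors deposited FPKM per gene and, as the score for circular RNAs, SRPBM (back-splice junction reads scaled to all mapped reads), with at least 2 reads in every library where a circle is listed above 0.

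From these values, each library total was taken as the most common total under which short genes hold exactly 1 fragment. The length of a gene was the smallest that turned its 4 FPKM into whole fragments (within 0.02), found for 99.9% of 16192 protein-coding genes, so counts are the smallest possible. Counts served for intervals only, by the exact Clopper-Pearson method for ratios (95%) and the Poisson method for levels. PCR duplicates are not removed from them, and they cover counting error only. A count of 0 allows up to 3 fragments. Following the study's limits on level and ratio, genes with at least 1 FPKM in at least 3 of 4 libraries were kept and a 2-fold difference was called. The ratio was taken here on log2(FPKM + 0.01), which understates differences of low genes. The study also set a limit on the false discovery rate from DEGseq between stages, which was not applied here. With 1 library per stage no p-value was computed. Scripts (Python 3.11.15, numpy 2.4.6, pandas 2.3.3, scipy 1.17.1) were tested on simulated data.

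All 10 genes are described. Of the wider list, reliably expressed genes called in any of 5 comparisons are named. Genes of that list below the expression limit, such as AKR1C1, could also pass 2-fold and are not named for it. The other receptors, PTGDS, HPGDS, TBXAS1, SLCO2A1 and ABCC4 are named whatever their values. AKR1B1, AKR1CL1, PTGR2 and ZADH2 were named after their values were seen. The 3 nearest profiles are given for each reliably expressed gene of the 10 with a range of at least 2-fold. The genes and lists were chosen with earlier results of these data known. Alternatives were pseudocounts of 0.1 and 1, median-ratio size factors, scaling to summed protein-coding FPKM, and other expression limits. The wider list was not run under them. Sequences were not used here.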

Additional observations from a re-analysis of the deposited data

How the results depend on the processing

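No paired analysis was possible because each stage has 1 library, and for the same reason no replicate could be left out. The number of prostaglandin genes called depended on the expression limit. With all 10 genes counted it was 5 in D2 vs D0 (29.6% of 16192 genes called), 1 in D4 vs D2 (18.7%), 4 in D8 vs D4 (27.7%), 6 in D4 vs D0 (32.2%) and 5 in D8 vs D0 (21.7%), and the numbers were equal with at least 1 FPKM in 1 library, a limit added after the data were seen. Of the 5 reliably expressed genes, median-ratio scaling left 0 called in D8 vs D4.

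None of the 50 log2 ratios of the 10 genes changed sign while called under any alternative. Median-ratio scaling changed 5 calls, PTGIS (-0.99) and PTGFR (-0.90) in D8 vs D4, PTGS1 in D8 vs D4 (1.14) and D8 vs D0 (-0.89), and HPGD in D8 vs D0 (1.07), and turned the sign of 3 uncalled ratios, D8 vs D4 of PTGER4 (0.20) and PTGES3 (0.20) and D8 vs D0 of PTGES2 (0.02). A pseudocount of 0.1 ended 1 call, PTGS1 in D8 vs D0 (-0.97). A pseudocount of 1, above the level of the low genes in most libraries, ended 7 calls, all of PTGS1, PTGS2, PTGER2 or PTGER4, among them PTGS2 in D4 vs D2 (-0.64) and D8 vs D4 (0.66). Scaling to summed protein-coding FPKM changed none. Depth limits HPGD, PTGIR, PTGER1, PTGDR, PTGDR2 and SLCO2A1, each with at most 23 fragments in a library.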
